A study of Mus musculus with 23 samples.

Results

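The tricarboxylic acid (TCA) cycle enzymes described here are the products of 9 genes: citrate synthase (Cs), the 3 subunits of the NAD-dependent isocitrate dehydrogenase (Idh3a, Idh3b and Idh3g), the NADP-dependent isocitrate dehydrogenase (Idh2), the first component of the 2-oxoglutarate dehydrogenase complex (Ogdh), the succinate-CoA ligase subunits Suclg1 and Suclg2, and malate dehydrogenase (Mdh2). They were chosen by symbol, with earlier results of these data known, from the 38924 genes listed in each count file. All 9 were found, and all 9 passed the filter on low counts in both sets of libraries, among 13140 genes tested at 7 months and 9144 at 4 and 24 months.

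The TCA cycle oxidises acetyl-CoA in the mitochondrial matrix and passes the electrons to NAD and FAD, which feed the respiratory chain. The NAD-dependent steps are catalysed by the Idh3 complex, by the Ogdh complex and by Mdh2, whereas Idh2 interconverts the same substrates as Idh3 but uses NADP, and its NADPH serves biosynthesis and antioxidant defence. Nampt, the gene manipulated in these mice, encodes the enzyme that sets the pace of NAD salvage from nicotinamide, the main source of NAD in skeletal muscle.

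The 23 libraries hold poly(A) RNA of quadriceps from as many C57BL/6 mice on standard chow, some of which had been given tolerance tests for glucose and exercise. Wild-type (WT) mice were 4, 7 or 24 months old (4 libraries per age). Mice lacking Nampt in skeletal muscle (mNKO) were 7 months old (4 libraries), and mice with excess Nampt in skeletal muscle (MCK-NamptOE, here OE) were 4 months (3 libraries) or 24 months old (4 libraries). MCK is the usual short name of muscle creatine kinase, whose promoter is widely used to drive transgenes in striated muscle. The driver of the Nampt deletion, the sex of the mice and the strand of the libraries are not given in the sources used here. RNA was purified with miRNeasy at 7 months and with Trizol at 4 and 24 months, and the 7-month libraries held 14900674 to 22755930 counts on genes against 2032544 to 3443762 in the others. The 7-month set was therefore fitted apart, and a difference between the sets cannot be told apart from age, extraction or depth. Library numbers are names within a group and have no order.

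Nampt, read first as a check of the labels, was at 102 to 127 CPM (counts scaled to library size, with TMM factors that centre most genes on no change) in the 4 WT libraries at 7 months and at 12.5 to 23.3 CPM in the 4 mNKO libraries. It was at 189 to 253 CPM in the 8 WT libraries at 4 and 24 months and at 4107 to 9533 CPM in the 7 OE libraries. Every library matched its label. The 10 skeletal fibre markers were detected in every group, with a summed level of 112300 to 195200 CPM in every group except mNKO, where it was 78260 to 113800 CPM.

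The 9 genes lie on 8 chromosomes of the mouse build GRCm38: Cs at chr10:128337734-128362479 (plus strand), Idh2 at chr7:80094846-80115392 (minus), Idh3a at chr9:54586334-54604661 (plus), Idh3b at chr2:130279309-130284547 (minus), Idh3g at chrX:73778963-73786897 (minus), Ogdh at chr11:6291633-6356642 (plus), Suclg1 at chr6:73248382-73276911 (plus), Suclg2 at chr6:95473009-95718800 (minus) and Mdh2 at chr5:135778480-135790398 (plus). Exons of Idh3b overlap exons of Nop56 on the opposite strand, and since the strand is not given some reads of one could be counted for the other, although Nop56 held 5770 counts over the 23 libraries against 62892 for Idh3b. Of the 50-base windows in the exons of Suclg2, 16.0% also occur in the predicted gene Gm15163, which held 14 counts against 7479 for Suclg2. The same share was 2.01% for Cs (with the related gene Csl), 0.236% for Suclg1 and 0 for the other 6.

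Promoter windows (250 bases before to 50 after the start site, RefSeq, GRCm38.p6) matched 8 of the 9 genes by symbol. No window was found for Idh3a, which was therefore not searched. They were searched on both strands for 3 motifs of regulators of mitochondrial genes: TCAAGGTCA (bound by estrogen-related receptors), GCGCATGC (the core of the NRF1 motif) and CCGGAAG (bound by ETS factors, GABP among them). The first was found in none of the 8 genes and in 0.424% of 32817 promoters, the second in Ogdh, in 2 of its 6 windows, and in 2.71% of promoters, and the third in Idh3b and Idh3g and in 8.86% of promoters. The 2 matching windows of Ogdh overlap and hold the same site, and no match of one motif overlapped a match of another. The windows of Idh3b and Idh3g are shown for their CCGGAAG match, in capitals, and those of Suclg2 and Idh2 because these genes had the lowest and the highest of the 9 fold changes in mNKO muscle. Each is printed 5′ to 3′ on the strand of the gene.

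Idh3b (chr2:130284402-130284701, minus strand): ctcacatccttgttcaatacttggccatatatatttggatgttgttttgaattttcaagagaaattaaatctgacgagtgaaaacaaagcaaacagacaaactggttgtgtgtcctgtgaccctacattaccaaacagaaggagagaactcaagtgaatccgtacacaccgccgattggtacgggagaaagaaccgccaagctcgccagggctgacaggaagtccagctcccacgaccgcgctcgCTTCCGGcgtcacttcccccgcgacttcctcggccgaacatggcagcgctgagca

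Idh3g (chrX:73786848-73787147, minus strand): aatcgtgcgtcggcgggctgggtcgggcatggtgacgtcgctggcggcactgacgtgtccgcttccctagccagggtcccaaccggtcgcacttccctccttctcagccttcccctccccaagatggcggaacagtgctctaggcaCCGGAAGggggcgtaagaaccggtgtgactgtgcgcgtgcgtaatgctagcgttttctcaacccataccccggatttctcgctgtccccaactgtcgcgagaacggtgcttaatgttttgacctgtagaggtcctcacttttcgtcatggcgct

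Suclg2 (chr6:95718797-95719096, minus strand): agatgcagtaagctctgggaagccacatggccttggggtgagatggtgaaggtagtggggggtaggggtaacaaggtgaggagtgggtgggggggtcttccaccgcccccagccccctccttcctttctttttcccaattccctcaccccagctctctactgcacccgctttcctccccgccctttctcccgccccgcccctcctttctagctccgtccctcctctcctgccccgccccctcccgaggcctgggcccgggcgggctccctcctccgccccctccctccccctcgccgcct

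Idh2 (chr7:80115301-80115600, minus strand): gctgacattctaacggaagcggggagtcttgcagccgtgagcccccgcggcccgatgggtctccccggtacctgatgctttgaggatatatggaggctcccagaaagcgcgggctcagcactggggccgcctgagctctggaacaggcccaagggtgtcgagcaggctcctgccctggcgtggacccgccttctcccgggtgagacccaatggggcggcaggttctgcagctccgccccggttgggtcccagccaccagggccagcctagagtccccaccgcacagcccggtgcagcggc

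The match in Idh3b lies on the opposite strand and begins 5 bases before the start site, and that in Idh3g lies on the strand of the gene and begins 104 bases before it. Neither Suclg2 nor Idh2 holds any of the 3 motifs in this window, and their windows have a G and C content of 67.7% and 68.3%, against 50.3% for Idh3b and 60.3% for Idh3g. A match describes these letters and is not evidence of binding.

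Compared per kilobase of exon (RPKM), Suclg2 was the lowest of the 9 in every group, with no overlap with the next gene, from 5.11 ± 1.15 RPKM (SD, n = 4) in mNKO to 11.4 ± 1.95 RPKM (n = 4) in WT at 7 months. In WT at 7 months Mdh2 led with 209 ± 23.1 RPKM, followed without overlap by Cs at 147 ± 20.9 RPKM. Next came Ogdh, Idh3a, Idh3b and Idh3g, between 109 and 125 RPKM on average, and neighbours in that order overlapped. Idh2 stood eighth at 31.4 ± 10.98 RPKM, overlapping Suclg1 at 48.4 ± 6.51 RPKM. In the Trizol-extracted groups the order differed: in WT at 4 months Ogdh (119 ± 11.8), Idh3b, Idh3g, Mdh2 and Cs (94.3 ± 10.9 RPKM) formed one overlapping series, with Idh3a below them at 60.2 ± 8.75 RPKM. Idh2 was sixth of the 9 in OE at 24 months, at 85.8 ± 45.8 RPKM, and seventh or eighth in every other group.

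**Figure D1:**
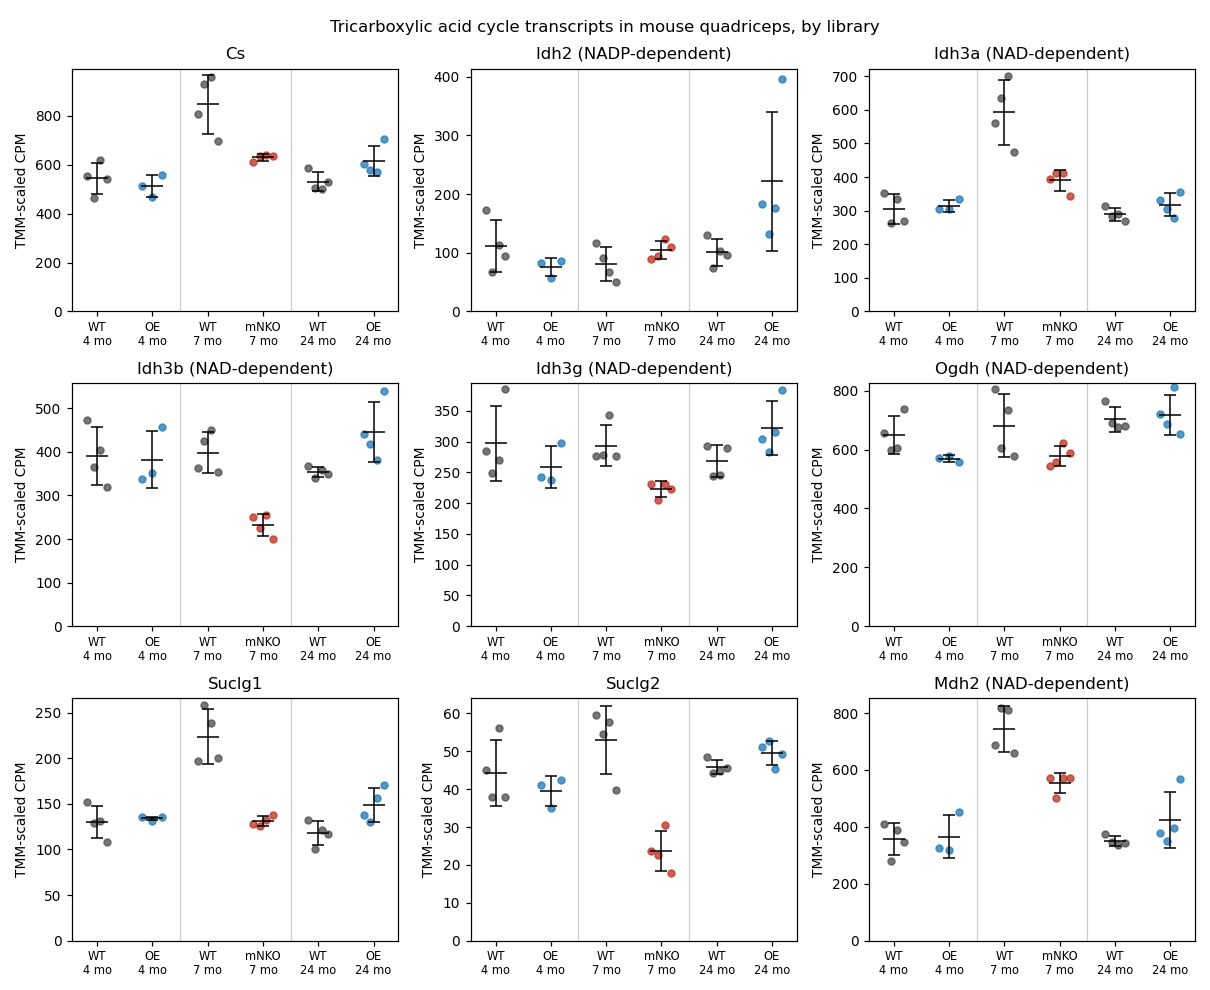
TMM-scaled CPM (vertical axes, each from 0) of the 9 genes in each of the 23 libraries (points), by group, with the group mean and SD (bars); grey lines separate the 4-, 7- and 24-month groups, of which the 7-month set was scaled apart. The 4 mNKO points lie below the 4 WT points at 7 months for Cs, Idh3a, Idh3b, Idh3g, Suclg1, Suclg2 and Mdh2, and for Idh2 OE at 24 months holds the highest point, 397 CPM.

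At 7 months, mNKO was set against WT to ask how transcripts of the cycle stand when muscle lacks its main NAD salvage enzyme. With TMM scaling, which centres most genes on no change, 7 of the 9 fell, none rose, and Ogdh and Idh2 did not pass the test. The falls were largest for succinate-CoA ligase and for Idh3b, and Idh2, the NADP-dependent member, was the only one with a fold change above 1. Over all 13140 genes, 24.5% were called lower and 28.6% higher by edgeR's quasi-likelihood test with p-values adjusted over all genes (Benjamini-Hochberg, threshold 0.05). The median log2 fold change was -0.43 over the 9 genes and 0.01 over all genes.

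Of the NAD-dependent isocitrate dehydrogenase, Idh3a encodes the catalytic subunit, and Idh3b and Idh3g the other subunits of the complex. Idh3b was at 363, 424, 451 and 354 CPM in the WT libraries and at 249.8, 225, 255 and 200.2 CPM in the mNKO libraries. All mNKO libraries lay below all WT libraries, with a log2 fold change of -0.78 (SE 0.14, adjusted p = 0.000782, edgeR's quasi-likelihood test). Idh3a was at 559.6, 634, 701 and 474 CPM in WT and at 393, 413, 411 and 344 CPM in mNKO. The groups did not overlap here either, and the log2 fold change was -0.60 (SE 0.15, adjusted p = 0.00586). Idh3g fell least of the 3, by 0.40 on the log2 scale (SE 0.13, adjusted p = 0.0196), from 276, 278, 343 and 276 CPM in WT to 230.5, 204.5, 232 and 223 CPM in mNKO. WT library 3 was the highest, and without it or without mNKO library 2 the adjusted p was 0.0732 and 0.0524.

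Idh2, which converts isocitrate with NADP in place of NAD, was at 116, 90.5, 68.1 and 50.2 CPM in the WT libraries and at 88.8, 95.2, 124 and 110.4 CPM in the mNKO libraries. The groups overlapped, since WT library 1 exceeded all mNKO libraries but one. The log2 fold change was 0.37 (SE 0.23, adjusted p = 0.203, edgeR's quasi-likelihood test), and leaving out single libraries gave 0.195 (without WT library 4, adjusted p = 0.445) to 0.60 (without WT library 1, adjusted p = 0.0336).

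Ogdh, the decarboxylating and rate-setting component of the 2-oxoglutarate dehydrogenase complex, was the NAD-dependent member that did not pass the test. It ran from 580.0 to 806 CPM in WT and from 545 to 624 CPM in mNKO, so that the groups overlapped (log2 fold change -0.24, SE 0.15, adjusted p = 0.191). Mdh2, which closes the cycle by oxidising malate to oxaloacetate, was at 687, 819, 811 and 661 CPM in WT and at 572, 502, 574 and 573 CPM in mNKO. It fell in all mNKO libraries relative to all WT libraries, by 0.42 on the log2 scale (SE 0.13, adjusted p = 0.0199). Without WT library 3 or without mNKO library 2 its adjusted p was 0.0624 and 0.054.

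Succinate-CoA ligase joins Suclg1, the subunit common to both forms of the enzyme, with either Suclg2, which makes the GTP-forming enzyme, or Sucla2, which makes the ATP-forming one. Suclg2 was at 59.7, 54.5, 57.7 and 39.8 CPM in WT and at 23.6, 22.5, 30.6 and 17.8 CPM in mNKO. The highest mNKO library was below the lowest WT library, and at 44.7% of WT this was the largest fall among the 9 (log2 fold change -1.16, SE 0.18, adjusted p = 0.000312, edgeR's quasi-likelihood test). Suclg1 was at 197, 258, 239 and 200.2 CPM in WT and at 128, 126, 132 and 138 CPM in mNKO. The mNKO libraries were close together and all below WT, with a log2 fold change of -0.77 (SE 0.13, adjusted p = 0.000458).

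Citrate synthase, which condenses acetyl-CoA with oxaloacetate and whose activity is a common index of mitochondrial content, was at 807, 929.6, 958 and 695 CPM in WT and at 610.2, 634, 641 and 636 CPM in mNKO. The groups did not overlap, and the log2 fold change was -0.43 (SE 0.14, adjusted p = 0.0237). The call held in 5 of the 8 fits that left out 1 library, with adjusted p-values from 0.00992 to 0.0778, and was lost without WT library 2, WT library 3 or mNKO library 1. In all, with TMM scaling 7 of 9 genes had every mNKO library below every WT library, against 23.1% of all genes tested. In the authors' deposited table the same 7 of 9 genes are below an adjusted p of 0.05, and the share of all genes below it there was not counted.

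These falls depend on how the libraries are scaled. Scaled to total counts instead, the median log2 fold change of all genes was 0.54, 51.6% of genes were called higher and 7.05% lower, and of the 9 genes Suclg2 alone remained called lower (-0.62, SE 0.20, adjusted p = 0.0171, edgeR's quasi-likelihood test). Idh2 was then called higher (0.90, SE 0.25, adjusted p = 0.00911). Cs, Idh3g and Mdh2 turned to 0.11, 0.13 and 0.11, Ogdh to 0.28, and Idh3a, Idh3b and Suclg1 stood at -0.06, -0.24 and -0.23, none of them called. On this scale Suclg1 alone kept every mNKO library below every WT library (139.5 to 169.9 against 176.4 to 194.2 CPM). Suclg2 overlapped (21.3 to 39.4 against 36.3 to 53.5 CPM), as did Cs, Idh3a, Idh3b, Idh3g and Mdh2. For Idh2 every mNKO library lay above every WT library (105.6 to 159.5 against 45.8 to 103.9 CPM). The share of all genes whose groups did not overlap on this scale was not counted. The median of the 9 was 0.11 on this scale, below that of all genes on the same scale. The order of the genes, from Suclg2 to Idh2, was the same on both scales. Such a result was bound to follow, since rescaling shifts the log2 fold changes of all genes by nearly the same amount.

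**Figure D2:**
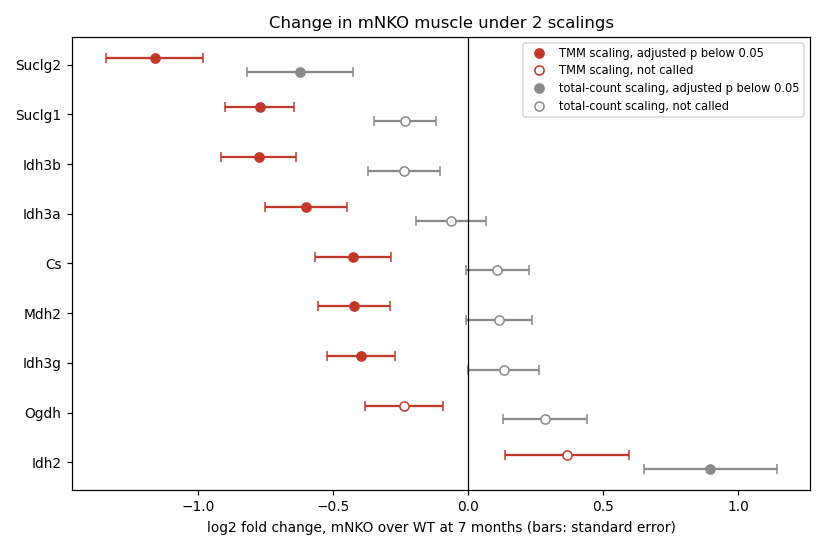
Log2 fold change of mNKO over WT at 7 months (horizontal axis; points with standard error bars) for the 9 genes, with TMM scaling (red) and total-count scaling (grey), filled where the adjusted p was below 0.05. With TMM scaling 7 genes are called, all lower; with total-count scaling Suclg2 is called lower, at -0.62, and Idh2 higher, at 0.90.

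Ratios of the counts of 2 genes within a library do not depend on the scaling. The ratio of Idh2 to Idh3a, the NADP- against the NAD-dependent isocitrate dehydrogenase, was 0.207, 0.143, 0.0972 and 0.106 in WT at 7 months and 0.226, 0.231, 0.302 and 0.321 in mNKO. Every mNKO library exceeded every WT library, and the ratio was 202% of WT, a log2 difference of 1.01 (exact two-sided permutation test, p = 0.0286, the smallest that 4 against 4 libraries allow; 0.143 after adjustment over the 30 ratio tests). The ratio of Idh3b to Idh3a was lower in every mNKO library than in every WT library, at 88.0% of WT (exact permutation p = 0.0286, adjusted 0.143). That of Idh3g to Idh3a was 115% of WT with overlapping groups (exact permutation p = 0.143, adjusted 0.306). None of the 30 adjusted p-values was below 0.05, and with these group sizes the smallest was 0.143.

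Within succinate-CoA ligase, the ratio of Suclg2 to Suclg1 in mNKO was 75.3% of WT and the groups overlapped (0.199 to 0.304 in WT, 0.129 to 0.232 in mNKO; exact permutation p = 0.114, adjusted 0.264). The ratio of Suclg2 to its ATP-forming counterpart Sucla2 was 0.145, 0.125, 0.122 and 0.0969 in WT and 0.0769, 0.0760, 0.101 and 0.0679 in mNKO. The lowest WT library lay just below the highest mNKO library, and the ratio was 65.8% of WT (exact permutation p = 0.0571, adjusted 0.19). In contrast the ratio of Mdh2 to Cs, the enzymes on either side of oxaloacetate, was 0.882 ± 0.0479 in WT and 0.881 ± 0.0628 in mNKO (SD, n = 4 each), or 99.8% of WT (exact permutation p = 0.971).

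**Figure D3:**
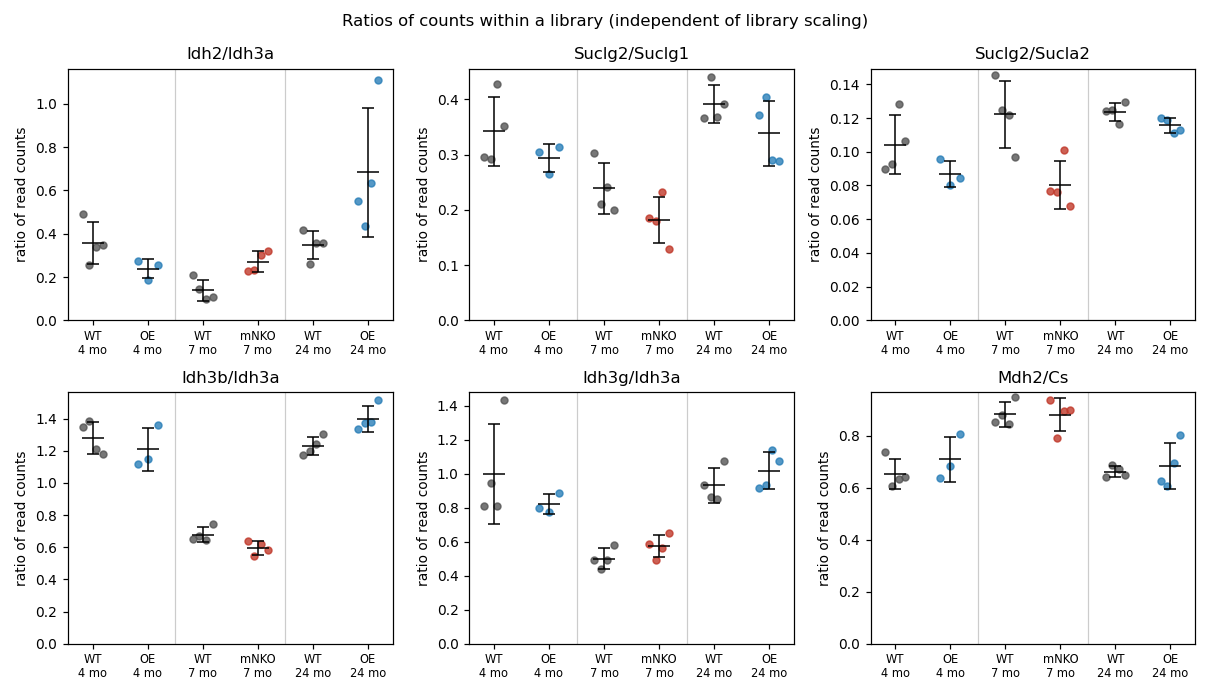
Ratio of read counts of 2 genes within each of the 23 libraries (vertical axes, each from 0; points), by group, with the group mean and SD (bars). For Idh2/Idh3a every mNKO library (0.226 to 0.321) lies above every WT library at 7 months (0.0972 to 0.207), and every OE library at 24 months (0.434 to 1.11) above every WT library of that age.

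Marker transcripts of several cell types differed in mNKO muscle along with these genes. Over all genes 24.5% were called lower and 28.6% higher. Of the 10 skeletal fibre markers 6 were called lower and 1 higher, and their summed level was 78260 to 113800 CPM in mNKO against 170600 to 195200 CPM in WT. All 8 macrophage and leukocyte markers found rose (975 to 1986 CPM in sum against 77.2 to 294 CPM), as did all 6 fibroblast markers (3099 to 5075 against 840 to 1105 CPM), 5 of 6 markers of regenerating fibres and satellite cells (380 to 687 against 38.5 to 49.6 CPM) and 6 of 7 slow fibre markers (286 to 318 against 27.9 to 40.1 CPM). None of the 4 endothelial and 4 adipocyte markers passed the test. With total-count scaling 5 skeletal fibre markers were called lower and 2 higher, 1 endothelial marker was called higher, and the markers of macrophages, fibroblasts and slow fibres called higher were again 8, 6 and 6. On that scale 7.05% of all genes were called lower and 51.6% higher. Of 2 cardiac markers tested, Tnni3 was called higher at a low level (0.159 CPM in WT and 0.884 CPM in mNKO, log2 fold change 2.42, adjusted p = 0.00162, edgeR's quasi-likelihood test), while Myh6 was not called and Nppa was at 0 in every group. Among brown adipocyte markers Cidea was at 1.16 on the log2 scale and not called, and Ucp1 was at 0 in mNKO. In bulk muscle, fewer fibres and less RNA per fibre cannot be told apart, and the part of these cell types in the changes of the 9 genes was not tested.

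Of the other enzymes of the cycle, 4 of 10 tested were called lower and 1 higher with TMM scaling, where 24.5% and 28.6% of all genes were. Sucla2 fell by 0.57 (SE 0.12), Fh1, which encodes fumarase, by 0.54 (SE 0.12) and Dld, the shared dihydrolipoamide dehydrogenase, by 0.50 (SE 0.13) on the log2 scale, with adjusted p-values of 0.00244, 0.00277 and 0.00817 (edgeR's quasi-likelihood test). Ogdhl, a close relative of Ogdh, rose from 0.304 ± 0.0511 to 1.57 ± 0.335 CPM (SD, n = 4 each) with a log2 fold change of 2.35 (SE 0.32, adjusted p = 0.000139). With total-count scaling the counts were 0 lower and 4 higher, where 7.05% and 51.6% of all genes were. Sucla2, Fh1 and Dld then stood at -0.04, -0.01 and 0.04, not called. Ogdhl was called higher on that scale too.

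Of 14 genes for the entry of pyruvate into the cycle, 10 were called lower and 1 higher, where 24.5% and 28.6% of all genes were. Their median log2 fold change was -0.79. Mpc1, a subunit of the mitochondrial pyruvate carrier, fell by 1.20 (SE 0.19, adjusted p = 0.000306, edgeR's quasi-likelihood test), and the pyruvate dehydrogenase kinases Pdk1 and Pdk2, which switch off pyruvate dehydrogenase, fell by 1.32 (SE 0.16) and 0.85 (SE 0.15). Pdk3, another kinase of the same family, rose from 0.552 ± 0.130 to 4.47 ± 0.648 CPM (SD, n = 4 each; log2 fold change 3.005, SE 0.255). With total-count scaling 4 of the 14 were called lower and 2 higher, where 7.05% and 51.6% of all genes were. Mpc1 and Pdk1 remained lower (-0.66 and -0.79), Pdk3 remained higher, and Pdk2 was at -0.32 and not called.

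Among 16 cytosolic counterparts and shuttle genes, 5 were called lower and 3 higher, near the 24.5% and 28.6% of all genes. Me1, the cytosolic NADP-dependent malic enzyme, fell by 1.97 (SE 0.21) and Gpd2, the mitochondrial glycerol-3-phosphate dehydrogenase, by 1.46 (SE 0.21), and both remained lower with total-count scaling (-1.45 and -0.93). Slc25a12, an aspartate-glutamate carrier of the malate-aspartate shuttle, fell by 0.80 (SE 0.15) and was at -0.28 and not called on the other scale. Me2, the mitochondrial malic enzyme, rose by 1.69 (SE 0.14) with TMM scaling and by 2.21 with total-count scaling. Idh1, the cytosolic NADP-dependent isocitrate dehydrogenase, named here after its value was seen, rose by 1.13 (SE 0.22, adjusted p = 0.00142, edgeR's quasi-likelihood test) and by 1.65 with total-count scaling. With total-count scaling 2 of the 16 were lower and 8 higher, near the 7.05% and 51.6% of all genes on that scale.

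Of 9 genes of mitochondrial NADPH and NAD, 4 fell and 1 rose, where 24.5% and 28.6% of all genes did. Nadk2, the mitochondrial NAD kinase that makes NADP from NAD, fell by 1.42 (SE 0.18, adjusted p = 7.5e-05, edgeR's quasi-likelihood test) and remained lower with total-count scaling (-0.88). Nmnat3, a mitochondrial NAD-making adenylyltransferase, and Slc25a51, the mitochondrial NAD carrier, fell by 0.64 (SE 0.12) and 0.58 (SE 0.12), but stood at -0.11 and -0.06, not called, with total-count scaling. Mthfd2, of mitochondrial folate metabolism, rose on both scales (0.83, SE 0.23, and 1.34). Of 11 regulators of mitochondrial biogenesis, 3 fell and none rose: the mitochondrial transcription factors Tfb2m (-1.04, SE 0.14) and Tfam (-0.61, SE 0.12), and the receptor Esrra (-0.40, SE 0.10). A count of 3 in 11 is near the 24.5% of all genes called lower. On the total-count scale Tfb2m remained lower (-0.51), Tfam was at -0.09 and Esrra at 0.12, neither called. The counts of called genes on that scale were 1 lower and 3 higher for the first list and 1 lower and 4 higher for the second, where 7.05% and 51.6% of all genes were.

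The comparison of OE with WT at 24 months asks how old muscle stands with excess Nampt. None of the 9 genes passed edgeR's quasi-likelihood test, where 0.0109% of all genes tested did. At an unadjusted p below 0.05 there were 3, Idh2, Idh3b and Suclg1, against 671 of all 9144 genes tested. DESeq2 called none of the 9. The median log2 fold change was 0.26 over the 9 genes and 0.00 over all genes, and all 9 lay above 0 with TMM scaling (0.03 for Ogdh to 1.14 for Idh2), but Ogdh was at -0.05 with total-count scaling.

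Idh2 was at 183, 132, 176 and 397 CPM in the OE libraries at 24 months and at 130.5, 74.0, 103 and 95.7 CPM in WT of the same age. Every OE library exceeded every WT library, the lowest of the OE libraries only narrowly, and library 4 of OE stood well above the rest. The log2 fold change was 1.14 (SE 0.36, adjusted p = 0.593, edgeR's quasi-likelihood test), and without that library it was 0.71. The authors' deposited table gives Idh2 a log2 fold change of 1.06 with an adjusted p of 0.0266, the only one of the 9 below 0.05 there. The ratio of Idh2 to Idh3a was 0.554, 0.434, 0.634 and 1.11 in OE and 0.416, 0.261, 0.355 and 0.356 in WT. No OE library overlapped WT, and the ratio was 187% of WT (exact permutation p = 0.0286, adjusted 0.143 over 30).

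Idh3b was at 441, 418, 382 and 541 CPM in OE and at 368, 339, 358 and 350.1 CPM in WT at 24 months. These groups did not overlap either (log2 fold change 0.33, SE 0.14, adjusted p = 0.642, edgeR's quasi-likelihood test), so 2 of the 9 genes had every OE library above every WT library, against 2.36% of all genes. Its ratio to Idh3a was also higher in every OE library, at 114% of WT (exact permutation p = 0.0286, adjusted 0.143). Suclg1 was at 130.3 to 171 CPM in OE and 101 to 132.5 CPM in WT, with a narrow overlap and a log2 fold change of 0.34 (SE 0.13, adjusted p = 0.608). For the other 6 genes, whose groups overlapped, the log2 fold changes ran from 0.03 (Ogdh) to 0.27 (Mdh2). The value of Mdh2 was 0.10 without library 4 of OE.

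Slow fibre markers were set beside Idh2 in these libraries. The summed level of the 7 markers was 458, 226, 519 and 791 CPM in OE at 24 months and 272, 44.6, 198 and 26.8 CPM in WT, and Nampt in OE was at 5736, 4107, 5422 and 9533 CPM. Library 4 of OE was the highest in all 3 measures. In WT at 24 months library 1 had the highest sum and the most Idh2 (130.5 CPM). Library 4 of that group had the lowest sum, but more Idh2 (95.7 CPM) than library 2 (74.0 CPM). None of the 7 markers passed the test at 24 months (median log2 fold change 2.31), and none is below an adjusted p of 0.05 in the authors' deposited table. In the other groups the sum ran from 24.6 to 99.6 CPM in WT at 4 months and from 21.7 to 56.5 CPM in OE at 4 months, where Tnnc1 was at 0. In WT at 4 months libraries 1 to 4 had sums of 97.0, 30.5, 24.6 and 99.6 CPM. Their Idh2 was at 173, 67.7, 113 and 93.9 CPM in the same order. In mNKO, where the sum of 286 to 318 CPM exceeded that of all 4 WT libraries at 7 months, Idh2 did not pass the test with TMM scaling. With total-count scaling it was called higher there (log2 fold change 0.90, adjusted p = 0.00911, edgeR's quasi-likelihood test). Its ratio to Idh3a, which does not depend on the scaling, was 202% of WT. The part of fibre type in the levels of Idh2 was not tested.

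**Figure D4:**
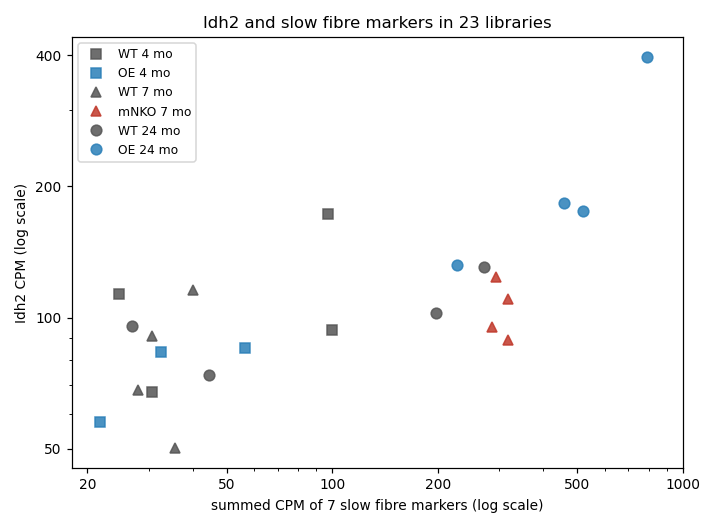
Idh2 (vertical axis, CPM, log scale) against the summed CPM of 7 slow fibre markers (horizontal axis, log scale) in the 23 libraries, with shape for age and colour for genotype. OE library 4 at 24 months is highest on both axes (397 and 791 CPM), and the mNKO libraries lie at 286 to 318 CPM of slow fibre markers with 88.8 to 124 CPM of Idh2.

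In OE against WT at 4 months none of the 9 genes passed edgeR's quasi-likelihood test, none had an unadjusted p below 0.05 and DESeq2 called none (0.0109% of all genes were called, which is Nampt itself). Log2 fold changes ran from -0.58 (Idh2, SE 0.40, adjusted p = 0.959) to 0.05 (Idh3a), with a median of -0.09. Idh2 was at 83.3, 57.5 and 85.3 CPM in OE and at 173, 67.7, 113 and 93.9 CPM in WT, so that the groups overlapped. Its log2 fold change was -0.29 without WT library 1, the highest, and -0.76 without WT library 2. Ogdh alone had every OE library below every WT library, at 573, 579.5 and 556 CPM against 598 to 737 CPM, where 2.59% of all genes did (log2 fold change -0.19, SE 0.12, adjusted p = 0.959).

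Ageing from 4 to 24 months was compared in WT and in OE, using the same libraries as the genotype comparisons, so these comparisons share samples and are not independent. In WT none of the 9 passed edgeR's quasi-likelihood test (0.153% of all genes did), none had an unadjusted p below 0.05, DESeq2 called none, and every gene had overlapping groups. The log2 fold changes lay between -0.15 (Idh2, SE 0.36) and 0.11 (Ogdh, SE 0.11), and that of Idh2 turned to 0.14 without WT library 1 at 4 months. Suclg2 in WT was at 37.8 to 56.2 CPM at 4 months and 44.3 to 48.5 CPM at 24 months, and Cs at 464 to 618 and 501 to 588 CPM.

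In OE none of the 9 passed edgeR's quasi-likelihood test with age either (0.733% of all genes did), while DESeq2 called Idh2. An unadjusted p below 0.05 was found for 3 of the 9, against 1010 of all 9144 genes tested. Cs, Idh2, Ogdh and Suclg2 had every library at 24 months above every library at 4 months, 4 of 9 genes against 5.09% of all genes. Idh2 was at 57.5 to 85.3 CPM at 4 months and at 132 to 397 CPM at 24 months. In edgeR's quasi-likelihood test its log2 fold change was 1.57 (SE 0.40, adjusted p = 0.115), and 1.13 without library 4 at 24 months. DESeq2 gave 1.56 with an adjusted p of 0.0123. Its ratio to Idh3a was 272% of that at 4 months with no overlap (exact permutation p = 0.0286, adjusted 0.143), whereas in WT it was 98.1% with overlap (exact permutation p = 1.0). Ogdh was at 573, 579.5 and 556 CPM at 4 months and at 722, 687, 812 and 654 CPM at 24 months. It had a log2 fold change of 0.34 (SE 0.12, adjusted p = 0.249, edgeR's quasi-likelihood test), and the authors' deposited table gives 0.33 with an adjusted p of 0.0109, and 1.503 with 6.39e-05 for Idh2. Suclg2 was at 34.95 to 42.4 CPM and 45.3 to 52.7 CPM (log2 fold change 0.34 with an SE of 0.15 and an adjusted p of 0.389), and its ratio to Sucla2 was 134% of that at 4 months without overlap (exact permutation p = 0.0286, adjusted 0.143).

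Over all genes tested, 0.733% were called with age in OE and 0.153% with age in WT. Among slow fibre markers 1 of 7 was called with age in OE, Atp2a2, at 2.12 (SE 0.43, adjusted p = 0.0435, edgeR's quasi-likelihood test), and the median log2 fold change was 5.10. With total-count scaling 2 of the 7 were called, where 29 of all 9144 genes were called higher and 39 lower. In the authors' deposited table all but Myl3, or 6 of the 7, are below an adjusted p of 0.05 with age in OE. Their log2 fold changes run from 2.05 (Atp2a2, adjusted p = 4.18e-05) to 4.38 (Tnni1, 6.8e-06). The share of all genes below 0.05 in that table was not counted. Some marker transcripts of other cell types differed with age too. In OE 2 of 6 fibroblast markers (median log2 fold change -1.58) and 2 of 4 endothelial markers (-0.75) were called lower, and their summed levels went from 452 to 600.4 CPM at 4 months to 165 to 440 CPM at 24 months, and from 119.5 to 128 CPM to 68.0 to 78.4 CPM. In WT 2 fibroblast markers and 1 endothelial marker were called lower, with sums of 472 to 684 CPM at 4 months and 322 to 397 CPM at 24 months for fibroblasts. The part of these cell types in the levels of the 9 genes was not tested.

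The test of whether the change with age differed between OE and WT called none of the 9 and 0% of all genes, and DESeq2 called none of the 9. Unadjusted p-values were below 0.05 for Idh2, with a difference of 1.72 (SE 0.54, adjusted p = 0.714), and for Idh3g, with 0.46 (SE 0.21, adjusted p = 0.868). Over all 9144 genes tested, 498 had an unadjusted p below 0.05. No tested gene of the 5 pathway lists was called by edgeR's quasi-likelihood test in the comparisons at 4 and 24 months. Of the other enzymes of the cycle 9 of 11 passed the filter on low counts there. Ogdhl, at 0.477 ± 0.369 CPM (SD, n = 4) in WT at 4 months, did not and was not tested. In the authors' deposited table Ogdhl is below an adjusted p of 0.05 with age in WT (log2 fold change 1.70, adjusted p = 0.0237) and in OE (1.76, 0.0174). With age in OE the authors' deposited table also has Esrrb (2.05, adjusted p = 0.000127), Esrrg (1.60, 0.0401), Me1 (-0.38, 0.0113) and Idh1 (-0.69, 0.0291) below 0.05.

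**Figure D5:**
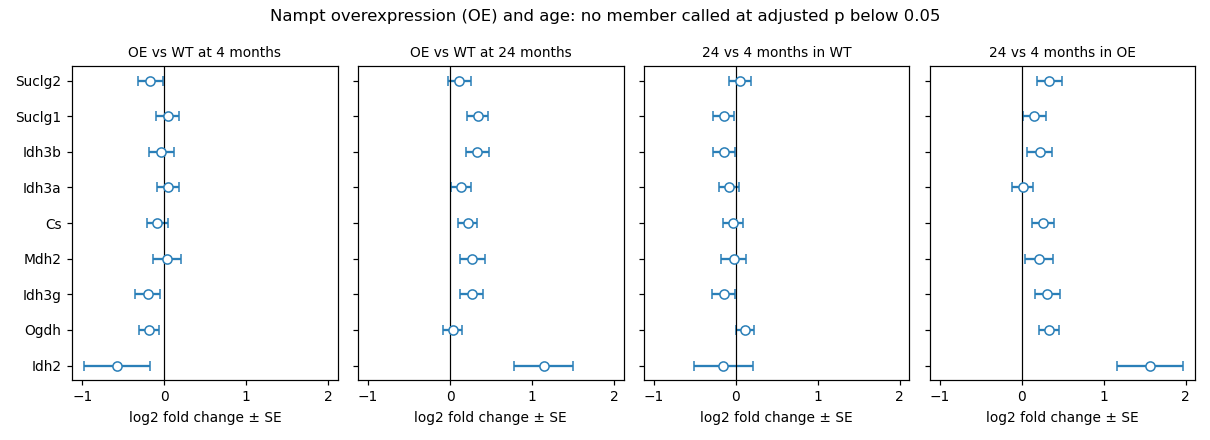
Log2 fold changes of the 9 genes (points with standard error bars) in 4 comparisons: OE over WT at 4 and at 24 months, and 24 over 4 months in WT and in OE. All points are open since none passed the test; Idh2 lies at 1.14 in OE over WT at 24 months, at 1.57 with age in OE, at -0.58 in OE over WT at 4 months and at -0.15 with age in WT, and the other 8 genes lie between -0.20 and 0.34.

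The 9 genes varied together, apart from Idh2, among the 7-month libraries. Over the 28 pairs without Idh2, Pearson's r of log2 CPM had a median of 0.90 (0.54 to 0.97) over those 8 libraries, while the 8 pairs with Idh2 had a median of -0.35 (-0.51 to 0.15). Over the 15 libraries at 4 and 24 months the medians were 0.49 without and 0.69 with Idh2. These values describe libraries that share scaling and group differences. Over all 23 libraries, with the mean of each set removed, the genes most like Idh2 among 9129 were Ldhb (r = 0.874), Vgll2 (0.826), Smtnl1 (0.814), Myl2 (0.81), itself one of the slow fibre markers, and Acaa2 (0.808). For Idh3a they were Vdac1 (0.934), mt-Nd1 (0.924), Mpc1 (0.924), Idh3b (0.921) and Nudt4 (0.92), and for Suclg2 Dnajc27 (0.926), Sdha (0.925), Maob (0.924), Ghitm (0.918) and Zfp367 (0.916). Within the 4- and 24-month libraries alone the r of Ldhb with Idh2 was 0.906, while that of Dnajc27 with Suclg2 was 0.438 against 0.982 at 7 months.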

How the data were processed

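The files hold RNA-seq of quadriceps from 23 mice in 6 groups. The authors deposited raw counts per gene, and 5 tables of their own tests with mean normalised counts (a signal), log2 fold changes with standard errors, test statistics (a score) and p-values, per the file headers. The tools named for build mm10, per the submitters' processing notes, are DESeq, DESeq2, HTSeq, TopHat2 and cutadapt 1.4.2; their order and settings are not given in the sources used here. Each file lists 38924 genes and 5 summary lines, which held 21.53 to 33.5% (7 months) and 33.58 to 40.02% (others) of the total and were left out. Symbols were taken from the deposited tables for 19905 genes and from the reference for 17990, and positions from GRCm38.

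From the counts, edgeR 4.0.16 (R 4.3.3) computed TMM factors (0.752 to 1.286 at 7 months, 0.921 to 1.085 in the others), filtered genes by filterByExpr (99.93% and 99.53% of counts kept) and ran the robust quasi-likelihood test, with Benjamini-Hochberg adjustment over all genes tested and a threshold of 0.05. The 7-month libraries and the others were fitted apart, with 6 and 11 residual degrees of freedom. The biological coefficient of variation was 22.4% and 16%. Each library is a mouse. A p-value sets a difference between groups against the spread between mice within groups, estimated over all groups fitted together. The code was tested on simulated data. DESeq2 1.42.0, other scalings, no filter, robust estimation off, other sets of libraries and leaving out each library were the alternatives. RPKM values use the exon union of each gene.

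Named genes are the 9, Nampt, up to 4 called genes with the smallest p per pathway list, the 5 genes most like Idh2, Idh3a and Suclg2, and exceptions stated beside them. The genes and lists were chosen with earlier results of these data known.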

Additional observations from a re-analysis of the deposited data

Results flagged for a closer look

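Of 75 sets of 4 libraries examined (the 9 genes and 6 ratios in 5 groups), 3 held a library far from the others, by a gap to its nearest neighbour over 0.829 of the range, and chance flags about 1 in 20. Idh3g stood at 343.3 CPM in WT library 3 at 7 months (others 275.9 to 278.1 CPM). Ogdh stood at 765.1 CPM in WT library 1 at 24 months (others 675.3 to 689.4 CPM). Mdh2 stood at 501.9 CPM in mNKO library 2 (others 572.4 to 573.5 CPM).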

How the results depend on the processing

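In mNKO against WT, 7 of the 9 were called; with total-count scaling 2 were, and Cs, Idh3g and Mdh2 changed sign, to 0.109, 0.133 and 0.114, while Ogdh, not called on either scale, went from -0.24 to 0.28. With upper quartile scaling Cs was at -0.36 and not called (adjusted p = 0.0509, edgeR's quasi-likelihood test). Leaving out each library in turn gave 4 to 8 called, 4 without WT library 3 at 7 months. The calls of Idh3a, Idh3b, Suclg1 and Suclg2 held in 8 of 8 such fits, those of Idh3g and Mdh2 in 6 and that of Cs in 5. With no filter on low counts Idh2 was called higher, the 1 of the 9, in OE against WT at 24 months, with age in OE and in the difference between the age changes, and with age in OE also by DESeq2 and with robust estimation off. The cause was not tested. Without the filter, all genes called higher and lower were 14 and 46 in OE against WT at 4 months, 94 and 36 at 24 months, 81 and 106 with age in WT, 216 and 138 with age in OE and 89 and 17 in the difference, against 1 and 0, 1 and 0, 6 and 8, 29 and 38, and 0 and 0. DESeq2 called 4 and 0 at 24 months, 13 and 20 with age in WT and 68 and 59 with age in OE. Leaving out a library called 0 of the 9 in each of these comparisons, and the log2 ratio of Idh2 to Idh3a stayed at 0.866 to 1.229 in mNKO, 0.64 to 1.094 in OE at 24 months and 1.179 to 1.632 with age in OE. Of all values under alternatives, 861 kept direction and call or moved little, 11 lost the call, 7 gained it, 9 moved and 3 reversed. No paired analysis was possible because the labels give no replicate numbers. Over all genes tested, log2 fold changes had a median SE of 0.186 for mNKO against WT and of 0.227 for OE against WT at 4 months, where libraries were shallower.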

Other observations

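Within-library ratios of the isocitrate dehydrogenase subunits differed between the sets of libraries, which differ in extraction, depth and age, so that these cannot be told apart and no test was made. In WT muscle the ratio of Idh3b to Idh3a was 0.644 to 0.746 in the 4 libraries at 7 months, against 1.18 to 1.38 in the 4 at 4 months and 1.17 to 1.30 in the 4 at 24 months. The ratio of Idh3g to Idh3a in WT was 0.439 to 0.582 at 7 months, 0.807 to 1.43 at 4 months and 0.852 to 1.08 at 24 months. The ratio of Mdh2 to Cs in WT was 0.846 to 0.950 at 7 months, 0.606 to 0.738 at 4 months and 0.640 to 0.689 at 24 months. That of Idh2 to Idh3a in WT was 0.0972 to 0.207 at 7 months, 0.256 to 0.491 at 4 months and 0.261 to 0.416 at 24 months. Other ratios overlapped in WT. That of Suclg2 to Sucla2 was 0.0969 to 0.145 at 7 months, 0.0895 to 0.128 at 4 months and 0.116 to 0.130 at 24 months. That of Suclg2 to Suclg1 was 0.199 to 0.304 at 7 months and 0.292 to 0.428 at 4 months, but 0.366 to 0.440 at 24 months, without overlap with 7 months.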
